A study of Mus musculus with 9 samples.

Results

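Skeletal muscle fibres form when mononucleated myoblasts stick to each other and merge their plasma membranes. Cadherins, junctional adhesion molecules and other cell surface proteins of the immunoglobulin superfamily bring the cells into contact, the muscle-specific membrane proteins myomaker and myomixer carry out the merger, and ferlins, large calcium-binding membrane proteins, act in membrane fusion and repair. The 10 genes described here cover these steps: Mymk and Mymx (the fusogens), Cdh15 and Cdh2 (cadherins), Jam2 and Jam3 (junctional adhesion molecules), Nphs1 and Ncam1 (adhesion proteins of the immunoglobulin superfamily), and Dysf and Myof (ferlins). They were chosen by symbol from a list of adhesion and fusion genes, and all 10 were found among the 22631 genes of the first deposited table and among the 27775 genes of the second.

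The libraries came from satellite cells, which are muscle stem cells, taken from hindlimb muscles of 9-week-old mice. The Mutant group (3 libraries) came from mice lacking Uhrf1 in satellite cells and given tamoxifen, the Cre Control group (3 libraries) from mice given tamoxifen (culture not given, and not analysed here), and the Control group (3 libraries) from mice given oil. The sources used here do not give the allele, the Cre driver or the genotype of the Control mice. Per the labels' protocols, tamoxifen was injected on each of 5 days (150 µl at 20 mg/ml), and Mutant and Control cells were seeded at 5000 cells/cm2 and grown for 3 days. Mutant mice received tamoxifen and Control mice oil, so effects of tamoxifen and of Uhrf1 loss cannot be told apart in what follows.

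Gene expression was available as the authors' deposited tables of comparisons, so group means are given in place of values per library, and the depth behind them is unknown. One table compares Mutant with Control and gives mean TPM, a read share scaled by transcript length. The test estimate used below is the authors' log2 fold change of Mutant over Control, recovered as their statistic times its standard error (SE). The other compares 2 arms named PT and PUT, which the labels tie to no group, and gives 1 mean normalised count per gene over both arms. Uhrf1, which recruits the maintenance DNA methyltransferase to replicated DNA, averaged 20.4 TPM in Mutant and 118 TPM in Control in the authors' deposited table (log2 estimate -3.12 with SE 0.60, their DESeq2 adjusted p = 4.01e-06), and its fold change of PT over PUT was -4.00 on the log2 scale (SE 0.27). Muscle lineage markers were abundant in both groups, with Myod1 at 914 TPM in Mutant and 1018 TPM in Control, Des at 892 TPM in Mutant and 763 TPM in Control, and Itga7 at 305 TPM in Mutant and 355 TPM in Control, in the authors' deposited table. Repeat counts, the one measure used here per library, singled out the library labelled Control 3. IAPEz-int, the internal sequence of a retrotransposon, took 9.29%, 11.1% and 16.3% of repeat counts in the Mutant libraries, against 0.501%, 0.675% and 13.1% in Control 1, 2 and 3. The group means are means of 3 values: the product of the mean with 3 was whole at 4 decimals for 94.7% of the Mutant means and 94.4% of the Control means between 10 and 100 TPM, against 32.3% of either with a factor of 2. The labels list 3 libraries in each group, so Control 3 bears on the Control means below if these are the libraries averaged. Its part in the results was not tested, since the gene tables used here hold no values per library.

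Of the 10 adhesion and fusion genes, 2 were higher in Mutant (Jam2 and Ncam1), 2 were lower (Cdh15 and Cdh2) and 6 missed an adjusted p of 0.05 in the authors' deposited table. Of all its genes, 17.1% passed, 9.02% higher and 8.11% lower. The median test estimate of the 10 genes was -0.25, beside 0.01 over all genes with an estimate. Among genes averaging 1 TPM or more, with p-values readjusted over these, 4 of 9 passed, beside 30.5% of 13625 genes (15.7% higher and 14.8% lower). Among genes averaging 10 TPM or more the median was -0.19 for 9 of the 10 genes, beside -0.03 over 8687. At an adjusted p of 0.1 the count was 5 of 10, with Dysf added, beside 20.2% of all genes, and at 0.01 it was 4, beside 12.7%. Both fusogens had lower means in Mutant with errors too wide for a call. On the mean of all libraries in the authors' deposited table, Ncam1 stood highest among the 10 at 572 TPM, followed by Myof (162 TPM), Mymk (135 TPM) and Cdh2 (118 TPM). Cdh15 (83.2 TPM), Jam3 (44.5 TPM), Mymx (40.7 TPM), Jam2 (29.7 TPM) and Dysf (17.9 TPM) came next, and Nphs1, at 0.435 TPM, was nearly undetected. Of the 10, 9 averaged 1 TPM or more.

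**Figure D1:**
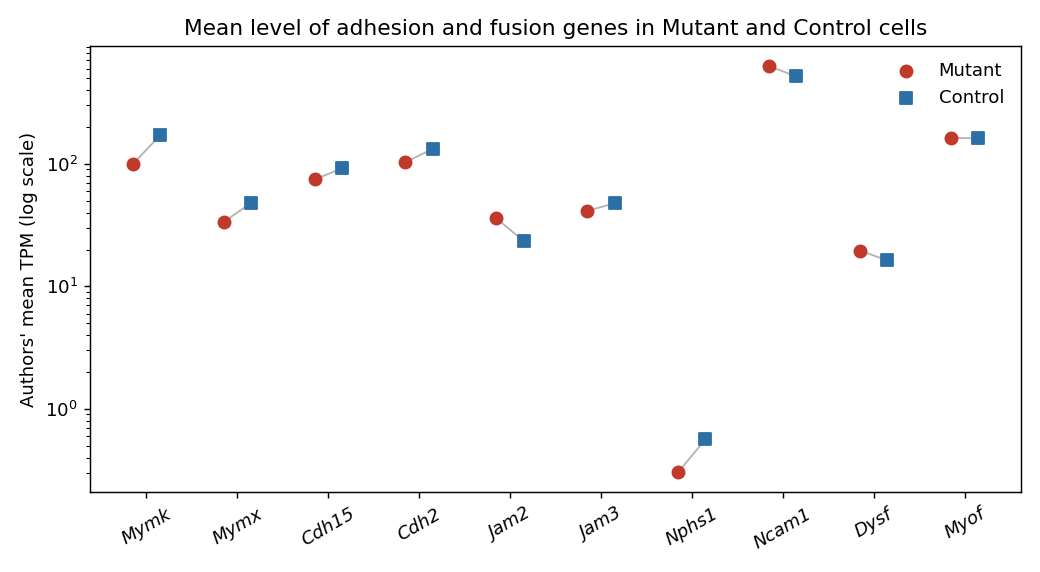
Mean level of each gene in the authors' deposited table, in TPM on a log axis, with Mutant (red circle) left of Control (blue square) and a grey line joining the 2 means of a gene; no error is drawn because the table holds group means. Jam2, Ncam1 and Dysf have the higher mean in Mutant, Myof means differ by little (163 TPM in Mutant and 161 TPM in Control), and the other 6 genes have the lower mean in Mutant.

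Neither fusogen differed between Mutant and Control by more than its error allows to be called. Myomaker (Mymk, ENSMUSG00000009214, chromosome 2, 27061636 to 27072179, minus strand, GRCm38) is a multi-pass membrane protein needed on both fusing cells. It averaged 99.5 TPM in Mutant and 171 TPM in Control in the authors' deposited table, a ratio of 0.583. Its test estimate was -0.78 (SE 0.42, 95% interval -1.61 to 0.04, their DESeq2 adjusted p = 0.241). Myomixer (Mymx, ENSMUSG00000079471, chromosome 17, 45600971 to 45602102, minus strand, GRCm38) is a micropeptide that works with myomaker to open the fusion pore. It averaged 33.5 TPM in Mutant and 48.0 TPM in Control in the authors' deposited table (log2 estimate -0.58 with SE 0.49, 95% interval -1.54 to 0.38, their DESeq2 adjusted p = 0.581). In both groups Mymk was the more abundant transcript of the pair, with 2.97 times the mean TPM of Mymx in Mutant and 3.56 times in Control.

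The errors of the fusogens were large for their level. Among 8687 genes averaging 10 TPM or more in the authors' deposited table, 1.97% had a larger SE than Mymk and 1.67% a larger one than Mymx. The other 7 adhesion genes above 10 TPM had SEs between 0.05 (Myof) and 0.12 (Dysf). Markers of differentiated myocytes, the cells that have left the cycle and make contractile proteins, shared both features. Their median SE was 0.55, and 17 of 18 had a negative test estimate, with a median of -0.87. Of the 18 markers, 1 (Actc1, lower in Mutant) passed. Of all genes, 51.2% had a positive estimate and 17.1% passed. Summed over the 18 markers, the mean level was 2685 TPM in Mutant and 4466 TPM in Control, led by Acta1 (708 TPM in Mutant and 1025 TPM in Control), Mylpf (545 TPM in Mutant and 1056 TPM in Control) and Myog (291 TPM in Mutant and 589 TPM in Control) in the authors' deposited table. The part of these cells in the levels of Mymk and Mymx was not tested. In bulk libraries fewer differentiated cells and less RNA per cell cannot be told apart.

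**Figure D2:**
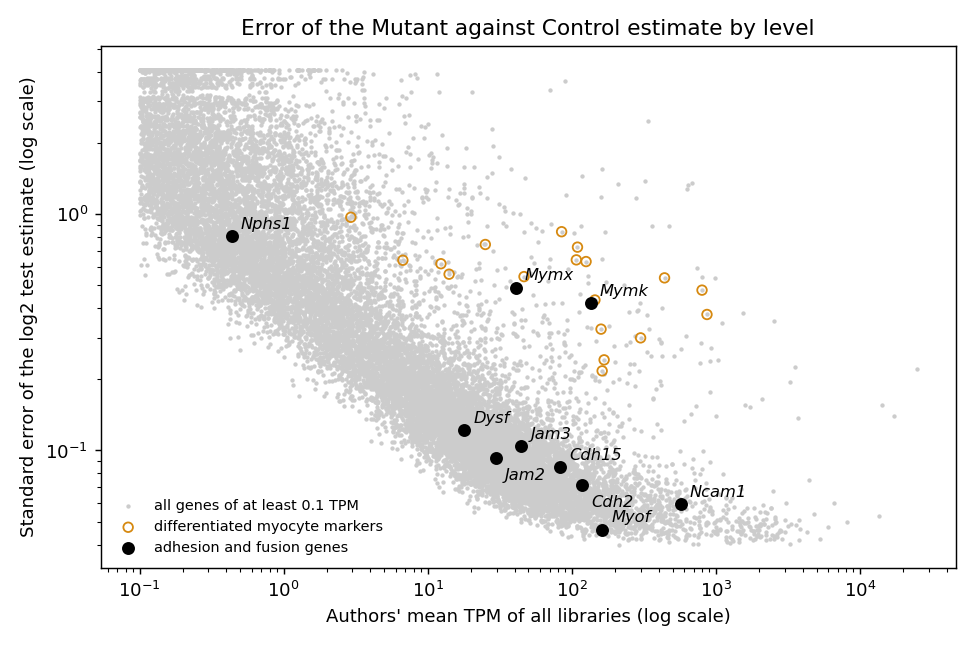
Standard error of the log2 test estimate of Mutant over Control against the mean TPM of all libraries, both on log axes, for genes of at least 0.1 TPM (grey), differentiated myocyte markers (open circles) and the 10 adhesion and fusion genes (black). Mymk (SE 0.42) and Mymx (SE 0.49) lie above the main band of genes at their level, as do most myocyte markers, and the other 8 named genes lie within the band.

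Both cadherins were lower in Mutant. M-cadherin (Cdh15, ENSMUSG00000031962, chromosome 8, 122847966 to 122867397, plus strand, GRCm38) is a calcium-dependent adhesion protein found mainly in satellite cells and myoblasts. It averaged 74.6 TPM in Mutant and 91.7 TPM in Control in the authors' deposited table, 18.7% lower (log2 estimate -0.31 with SE 0.09, 95% interval -0.48 to -0.15, their DESeq2 adjusted p = 0.00249).

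Windows of the RefSeq promoter table (GRCm38.p6) were read for 4 of the 10 genes (Cdh15, Dysf, Myof and Nphs1). Of the 4 called genes, only Cdh15 was among those read. Its window of 300 bases, from 250 before to 50 after the RefSeq start, spans chr8:122848124-122848423 on the plus strand. The motif CANNTG, the general E-box, which is read by myogenic factors such as MyoD and by other factors, occurred 4 times in it. The search covers both strands, because the motif is its own reverse complement, and the matches did not overlap each other. The part of these 4 sites in the level of Cdh15 was not tested. They are shown, because Cdh15 was the only called gene whose window was read, with 10 bases on each side and the motif in capitals.
Cdh15 site 1: gcactgatcaCATATGctgtcactca
Cdh15 site 2: ggcccacctaCATGTGctgtcactca
Cdh15 site 3: ccccaccacaCACGTGcagtcccttg
Cdh15 site 4: gctccccaagCACTTGcgctgtcact
They lie at chr8:122848128-122848153, chr8:122848229-122848254, chr8:122848332-122848357 and chr8:122848362-122848387. Of the 32851 windows in the table, 72.3% held at least 1 CANNTG and 6.49% held 4 or more. The windows of Myof and Nphs1 held 0, and those of the 2 Dysf starts held 0 and 1. The dinucleotide CG, the site of the methylation that Uhrf1 helps to maintain, occurred 7 times in the Cdh15 window, which is also the median over all windows, 13 and 14 times in the Dysf windows and 15 times in that of Myof. GENCODE M21 puts the start of Cdh15 408 bases upstream of the RefSeq start, so in that annotation the window lies inside the first exon. A match is a description of these letters, not a bound site.

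N-cadherin (Cdh2, ENSMUSG00000024304, chromosome 18) is the broadly expressed cadherin of myoblasts, neurons and heart. It averaged 103 TPM in Mutant and 133 TPM in Control in the authors' deposited table, 22.2% lower (log2 estimate -0.36 with SE 0.07, 95% interval -0.50 to -0.22, their DESeq2 adjusted p = 9.61e-06). Together the 2 cadherins summed to 178 TPM in Mutant and 224 TPM in Control, while the ratio of Cdh15 to Cdh2 was 0.723 in Mutant and 0.691 in Control.

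The junctional adhesion molecules, which pair across the contact between fusing cells (shown in zebrafish for Jam2 and Jam3), gave 1 call between them. Jam2 (ENSMUSG00000053062, chromosome 16, 84774123 to 84825928, plus strand, GRCm38) averaged 35.9 TPM in Mutant and 23.4 TPM in Control in the authors' deposited table, 53.1% higher (log2 estimate 0.64 with SE 0.09, 95% interval 0.46 to 0.82, their DESeq2 adjusted p = 2.17e-10). Among the 10 genes this was the largest called fold change. Jam3 (ENSMUSG00000031990, chromosome 9, 27097384 to 27155421, minus strand, GRCm38) averaged 41.4 TPM in Mutant and 47.5 TPM in Control in the authors' deposited table (log2 estimate -0.19 with SE 0.10, 95% interval -0.39 to 0.01, their DESeq2 adjusted p = 0.256). The ratio of Jam2 to Jam3 mean TPM was thus 0.866 in Mutant and 0.493 in Control, a difference between 2 means for which no test was available. Endothelial cells also make Jam2. The 8 endothelial markers summed to 22.8 TPM in Mutant and 26.2 TPM in Control in the authors' deposited table, with Fabp4, Egfl7 and Pecam1 the most abundant. Of the 8, 1 was higher (Tek) and 2 were lower (Cdh5 and Pecam1), beside 9.02% and 8.11% of all genes. The part of endothelial cells in the level of Jam2 was not tested.

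Of the other immunoglobulin superfamily members, Ncam1 (ENSMUSG00000039542, chromosome 9, 49502136 to 49798925, minus strand, GRCm38) encodes the neural cell adhesion molecule, a homophilic adhesion protein of neurons and developing or regenerating muscle. It averaged 627 TPM in Mutant and 517 TPM in Control in the authors' deposited table (log2 estimate 0.39 with SE 0.06, 95% interval 0.28 to 0.51, their DESeq2 adjusted p = 1.86e-09). Its mean level over all libraries was above that of 99.0% of the genes in that table. Schwann cells also make Ncam1, and their 8 markers summed to 27.1 TPM in Mutant and 31.9 TPM in Control in the authors' deposited table. Of the 8, 1 was higher (Mbp) and 1 lower (Erbb3), beside 9.02% and 8.11% of all genes. The most abundant of the 8 was Pmp22, at 15.1 TPM in Mutant and 15.1 TPM in Control, which did not pass. The defining marker Sox10 stood at 0.289 TPM in Mutant and 0.333 TPM in Control. The part of Schwann cells in the level of Ncam1 was not tested. Nphs1 (ENSMUSG00000006649, chromosome 7, 30458315 to 30487223, plus strand, GRCm38) encodes nephrin, the adhesion protein of the kidney slit diaphragm, which acts in myoblast fusion in zebrafish and mouse. It averaged 0.305 TPM in Mutant and 0.565 TPM in Control in the authors' deposited table (log2 estimate -0.99 with SE 0.81, their DESeq2 adjusted p = 0.559), and at this level a difference could not be resolved.

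Neither ferlin passed the test. Dysferlin (Dysf, ENSMUSG00000033788, chromosome 6, 84008590 to 84211060, plus strand, GRCm38) reseals torn muscle membranes and is mutated in limb-girdle muscular dystrophy. It averaged 19.6 TPM in Mutant and 16.3 TPM in Control in the authors' deposited table (log2 estimate 0.29 with SE 0.12, 95% interval 0.05 to 0.52, unadjusted p = 0.0191, their DESeq2 adjusted p = 0.0955), which missed the threshold. Myoferlin (Myof, ENSMUSG00000048612, chromosome 19, 37899036 to 38043577, minus strand, GRCm38) is the ferlin of proliferating and fusing myoblasts. It averaged 163 TPM in Mutant and 161 TPM in Control in the authors' deposited table (log2 estimate 0.03 with SE 0.05, 95% interval -0.06 to 0.12, their DESeq2 adjusted p = 0.884), so the interval excludes a rise above 0.12 and a loss beyond -0.06 on the log2 scale. Myof was the more abundant ferlin, at 8.33 times the mean TPM of Dysf in Mutant and 9.92 times in Control.

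In the second deposited table, of PT and PUT, 6 of the 10 passed, 4 higher in PT (Jam2, Ncam1, Nphs1 and Cdh2) and 2 lower (Cdh15 and Jam3). Of all its genes, 47.2% passed, 25.1% higher and 22.1% lower, so a count of 6 among 10 is near the background. The count was 7 at an adjusted p of 0.1, beside 52.5% of all genes, 6 at 0.01, beside 39.4%, and 7 among the genes averaging 10 normalised counts or more, beside 62.7%. The median log2 fold change was 0.36 for the 10 genes, beside 0.14 over all genes and -0.12 over 12170 genes averaging 100 normalised counts or more, a shift against which the values below should be read. The sources used here do not say whether the 2 tables share libraries, so they are set side by side without a test of their difference.

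**Figure D3:**
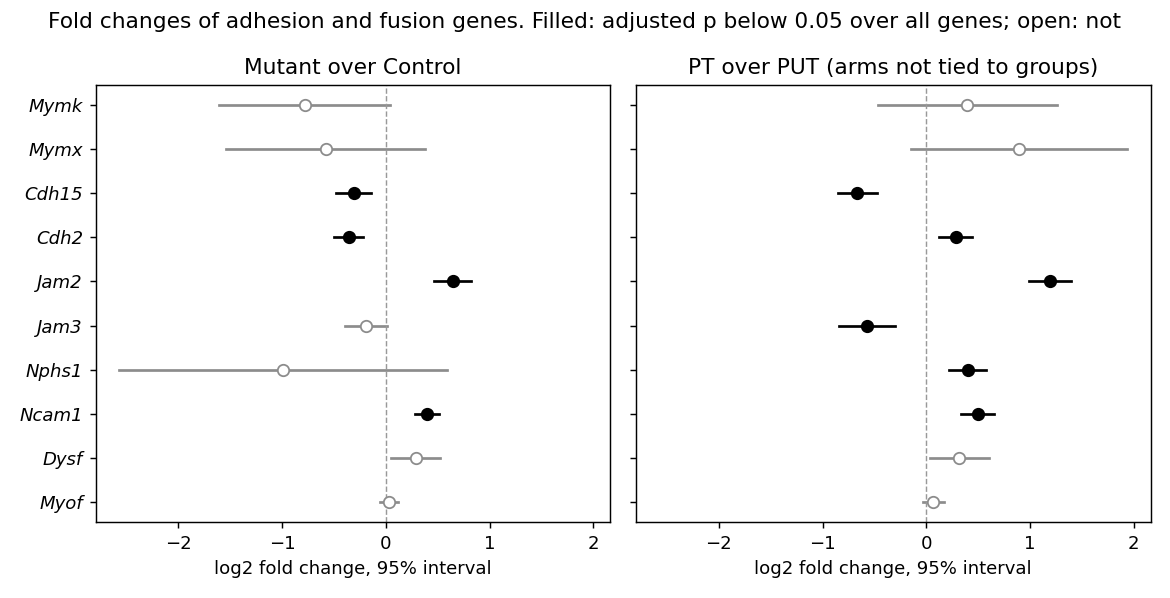
Log2 fold change of each gene with its 95% interval in the authors' deposited tables, Mutant over Control on the left and PT over PUT on the right, filled where the adjusted p over all genes is below 0.05. Jam2 and Ncam1 lie right of 0 and Cdh15 left of it in both panels, Cdh2 lies left of 0 in the first panel and right in the second, and Mymk and Mymx have intervals that include 0 in both.

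Jam2 was higher in PT with a log2 fold change of 1.20 (SE 0.10, their DESeq2 adjusted p = 1.5e-29), a fold of 2.29, in the authors' deposited table. Ncam1 was higher by 0.50 (SE 0.08, their DESeq2 adjusted p = 1.09e-08), and its mean of 13421 normalised counts exceeded that of 99.7% of genes. Cdh15 fell by 0.67 in PT (SE 0.10, their DESeq2 adjusted p = 2.58e-11) to a fold of 0.63. Cdh2 had the sign opposite to that in Mutant, 0.28 (SE 0.08, their DESeq2 adjusted p = 0.00118), in the authors' deposited table. Jam3 fell by 0.57 (SE 0.14, their DESeq2 adjusted p = 0.000119). The fusogens had positive values with wide errors, 0.40 for Mymk (SE 0.44, their DESeq2 adjusted p = 0.497) and 0.89 for Mymx (SE 0.53, their DESeq2 adjusted p = 0.163), where both had been negative in Mutant. Of 12170 genes with at least 100 normalised counts, 0.411% had a larger SE than Mymk in that table. The 18 myocyte markers had a median SE of 0.59 there, 8 of them negative, with 3 higher, 1 lower and a median of 0.19. Of the endothelial markers 3 of 7 were higher in PT and 0 lower, and so were 3 of 7 Schwann cell markers, while of the 8 markers of the cultured muscle lineage 2 were higher and 6 lower, beside 25.1% of all genes higher and 22.1% lower in that table. Their part in the values of Jam2, Ncam1 and Cdh15 was not tested. Dysf (0.32, SE 0.15, their DESeq2 adjusted p = 0.0594) and Myof (0.07, SE 0.05, their DESeq2 adjusted p = 0.295) did not pass.

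Nphs1 ranked high by normalised count in the table of PT and PUT, and low by TPM in that of Mutant and Control. It had a mean of 819 normalised counts, above 85.3% of genes, and a log2 fold change of 0.40 (SE 0.09, their DESeq2 adjusted p = 3.75e-05), whereas it lay above 30.2% of genes in the TPM table. These ranks are on unlike measures and gene sets: normalised counts, unlike TPM, are not scaled by transcript length. An exon of the transcript Nphs1-204 (chr7:30484915-30486749, plus strand, GENCODE M21, GRCm38) overlaps Rps12-ps4, a processed pseudogene of the ribosomal protein gene Rps12 on the opposite strand (chr7:30484701-30485097), by 183 bases. Rps12-ps4 had 3388 normalised counts and a log2 fold change of -0.44 (SE 0.06) in PT, and 12.1 TPM in Mutant and 10.2 TPM in Control, in the authors' deposited tables. The part of such reads in the count of Nphs1 was not tested. Jam3 and Ncam1 also have partners on the opposite strand in the same annotation. Jam3 shares 1159 exonic bases with Gm48796, which had 257 normalised counts and -0.60 (SE 0.16), and Ncam1 shares 417 with Gm11149, which had 2215 normalised counts and -0.24 (SE 0.08), in the authors' deposited table of PT and PUT. The libraries of Mutant and Control were made with a strand-specific kit per the labels' protocols; the sources used here do not say how strand was used in counting, so without it reads of each pair cannot be told apart.

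**Figure D4:**
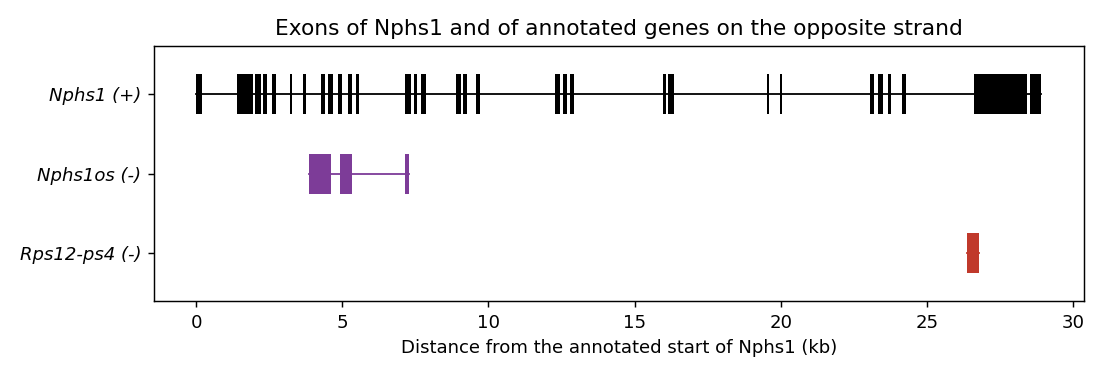
Exons of Nphs1 (all annotated transcripts, black), of the antisense gene Nphs1os (purple) and of the pseudogene Rps12-ps4 (red) in GENCODE M21, drawn to scale as distance in kb from the annotated start of Nphs1, with the strand beside each name. Rps12-ps4 sits at the left edge of the longest Nphs1 exon block, of which it covers 183 bases.

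Around the 10 genes, 88 further genes of adhesion, fusion and membrane repair were counted in 5 lists. The authors' deposited table had 23 of them higher in Mutant, 7 lower and 58 not called, with a median test estimate of 0.07. Over all genes 17.1% passed. With the filter at 1 TPM, 74 of the 88 remained and 32 of these passed, beside 30.5% of genes under that filter. In PT, 27 of 84 were higher and 18 lower, beside 25.1% and 22.1% of all genes. Their median was 0.14, as over all genes, beside -0.12 over 12170 genes averaging 100 normalised counts or more. With the filter at 10 normalised counts 47 of 73 passed in PT, beside 62.7%, so the share called in PT is near the background.

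Receptors and regulators of fusion were the list with the most genes higher in Mutant, 8 of 20, with 2 lower and a median of 0.15. With the filter at 1 TPM, 11 of 17 passed, beside 30.5% of genes. Nfatc2, a calcium-regulated transcription factor of myotube growth, rose to 2.73 TPM in Mutant, against 1.19 TPM in Control (log2 estimate 1.33 with SE 0.25), in the authors' deposited table. Il4ra, the interleukin-4 receptor chain through which nascent myotubes recruit myoblasts, rose to 26.1 TPM in Mutant, against 16.9 TPM in Control (0.64, SE 0.12). The tetraspanin Cd81 rose to 407 TPM in Mutant, against 269 TPM in Control (0.61, SE 0.06), and Boc, a cell surface co-receptor that binds cadherins, rose to 15.8 TPM in Mutant, against 10.9 TPM in Control (0.51, SE 0.12), in the authors' deposited table. The integrin chain Itga3 fell to 38.3 TPM in Mutant, against 56.6 TPM in Control (-0.55, SE 0.09), and Vcam1, an integrin ligand, to 57.9 TPM in Mutant, against 75.8 TPM in Control (-0.38, SE 0.07). In PT 7 of 19 genes of this list were higher and 4 lower, beside 25.1% and 22.1% of all genes, and Il4ra was among the lower ones (-0.33, SE 0.10), in the authors' deposited table.

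Of 16 cadherins and catenins other than Cdh15 and Cdh2, 4 were higher in Mutant and 1 lower, with a median of 0.11. With the filter at 1 TPM, 5 of 13 passed, beside 30.5% of genes. Cdh11, a cadherin of mesenchymal cells, rose to 12.7 TPM in Mutant, against 4.91 TPM in Control (1.41, SE 0.15), and Nectin1, an immunoglobulin-like adhesion protein of adherens junctions, to 49.3 TPM in Mutant, against 29.6 TPM in Control (0.72, SE 0.08), in the authors' deposited table. The catenins Jup (0.43, SE 0.09) and Ctnnd1 (0.26, SE 0.05) also rose, while Ctnnb1, beta-catenin, had 405 TPM in Mutant and 418 TPM in Control and did not pass. The member that fell was the endothelial Cdh5 (0.896 TPM in Mutant and 2.21 TPM in Control, -1.34, SE 0.41). In the table of PT and PUT, 7 of the 16 were higher and 1 lower, beside 25.1% and 22.1% of all genes. Cdh5 was among the higher ones (1.96, SE 0.62), at a mean of 12.8 normalised counts. Markers of fibroblasts, which express Cdh11, summed to 486 TPM in Mutant and 355 TPM in Control over 8 genes. Of these, 1 was higher (Gsn, 229 TPM in Mutant and 110 TPM in Control), beside 9.02% of all genes, and 7 did not pass. Among the 7 were Col3a1 (181 TPM in Mutant and 179 TPM in Control) and Thy1 (28.9 TPM in Mutant and 34.5 TPM in Control). So were Pdgfra (3.09 TPM in Mutant and 2.21 TPM in Control), Dcn (1.07 TPM in Mutant and 1.05 TPM in Control) and Lum (0.095 TPM in Mutant and 0.202 TPM in Control). Col1a1 (19.7 TPM in Mutant and 12.8 TPM in Control) and Ly6a (22.4 TPM in Mutant and 15.1 TPM in Control) completed the 7. Their test estimates were 0.67 (SE 0.27) for Col1a1 and 0.61 (SE 0.27) for Ly6a. The part of fibroblasts in the level of Cdh11 was not tested.

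Of 15 partners of the JAM and immunoglobulin proteins, 2 were higher in Mutant and 1 lower, with a median of -0.02. This is near the background of 17.1% over all genes, and with the filter at 1 TPM 3 of 10 passed, beside 30.5%. F11r, the junctional adhesion molecule JAM-A, rose to 4.64 TPM in Mutant, against 1.59 TPM in Control (1.32, SE 0.32), and Nck2, an adaptor that binds nephrin, to 36.5 TPM in Mutant, against 29.5 TPM in Control (0.46, SE 0.09), in the authors' deposited table. Tjp1, the scaffold that binds JAM tails, fell to 81.5 TPM in Mutant, against 89.3 TPM in Control (-0.24, SE 0.06). St8sia2, which adds polysialic acid to Ncam1, had 58.9 TPM in Mutant and 79.4 TPM in Control (-0.39, SE 0.30, their DESeq2 adjusted p = 0.522), and St8sia4, the other such enzyme, had 0.309 TPM in Mutant and 0.381 TPM in Control. In PT 4 of 13 were higher and 2 lower in the authors' deposited table, beside 25.1% and 22.1% of all genes. Tjp1 was among the higher ones (0.38, SE 0.07).

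Of 17 ferlin relatives, annexins and membrane repair genes, 5 were higher in Mutant and 1 lower, with a median of 0.18. With the filter at 1 TPM, 7 of 14 passed, beside 30.5% of genes. The annexins, calcium-dependent membrane binders that join dysferlin at a wound, split. Anxa2 rose to 1203 TPM in Mutant, against 897 TPM in Control (0.41, SE 0.07). Anxa5 rose to 202 TPM in Mutant, against 158 TPM in Control (0.38, SE 0.06). Anxa6 rose to 430 TPM in Mutant, against 375 TPM in Control (0.18, SE 0.06). Anxa1 fell to 490 TPM in Mutant, against 579 TPM in Control (-0.25, SE 0.06), in the authors' deposited table. Syt7 (0.98, SE 0.25) and S100a10, the partner of Anxa2 (0.24, SE 0.07), rose. The other ferlins were low, with Fer1l5 at 2.41 TPM in Mutant and 2.93 TPM in Control, and Otof, Fer1l4 and Fer1l6 at no more than 0.367 TPM in either group, in the authors' deposited table. In PT 1 of 16 was higher and 6 were lower, beside 25.1% and 22.1% of all genes, with a median of -0.34 in the authors' deposited table. Anxa6 (-0.67, SE 0.06) and S100a10 (-0.27, SE 0.07) were among the lower ones.

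Among 20 actin remodelling genes that act at the fusion site, 4 were higher in Mutant and 2 lower, with a median of 0.02. All 20 averaged 1 TPM or more, and 6 of 20 is at the background of 30.5% for such genes. Dock5, an activator of Rac1, rose to 4.90 TPM in Mutant, against 3.20 TPM in Control (0.68, SE 0.14), and Wasf2, which drives branched actin downstream of Rac1, to 164 TPM in Mutant, against 138 TPM in Control (0.33, SE 0.06), in the authors' deposited table. Dnm2 (0.23, SE 0.07) and Arpc2 (0.16, SE 0.05) rose as well. Wipf1 (-0.23, SE 0.06) and Trio (-0.21, SE 0.06) fell. Rac1 itself had 360.3 TPM in Mutant and 361 TPM in Control and Cdc42 had 379 TPM in Mutant and 362 TPM in Control, neither of which passed. In PT 8 of 20 were higher and 5 lower, beside 25.1% and 22.1% of all genes. Cdc42 (0.88, SE 0.07) and Wipf1 (0.42, SE 0.08) were among the higher ones and Arpc2 (-0.15, SE 0.06) among the lower, in the authors' deposited table.

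**Figure D5:**
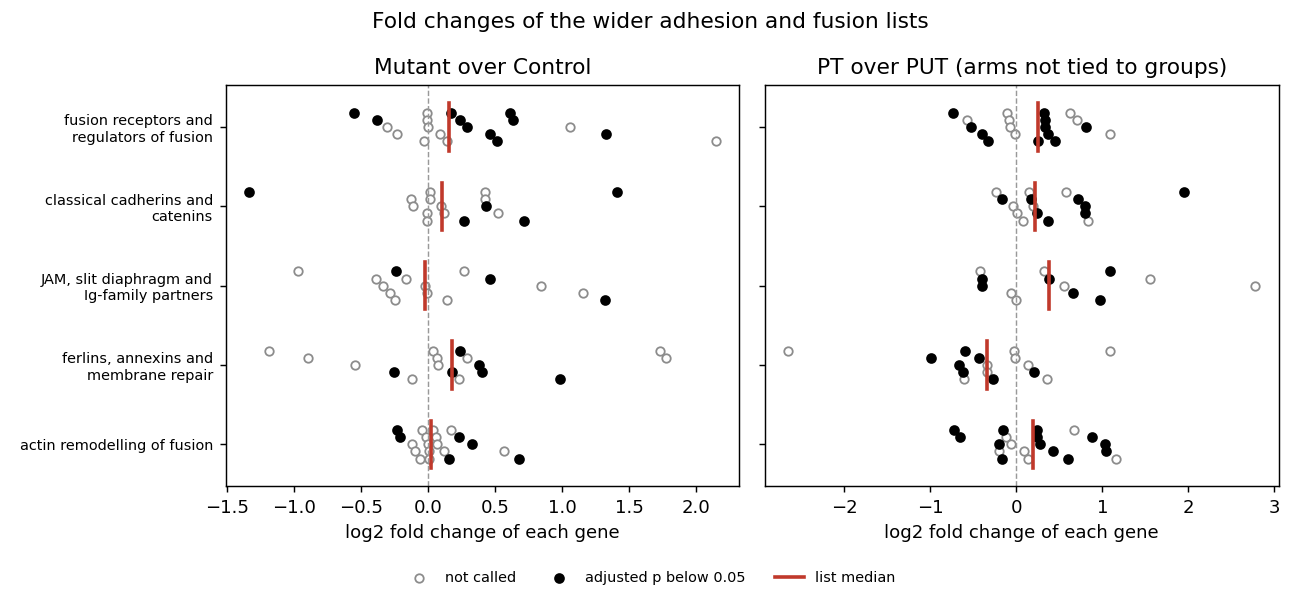
Log2 fold change of every gene of the 5 wider lists in the authors' deposited tables, Mutant over Control on the left and PT over PUT on the right, with genes of adjusted p below 0.05 filled black, others open, and the list median as a red bar. List medians lie between -0.02 and 0.18 in the left panel and between -0.34 and 0.38 in the right panel.

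Among the remaining marker lists, 8 macrophage and leukocyte genes of a list of 10 were in the table, and they summed to 115 TPM in Mutant and 34.3 TPM in Control in the authors' deposited table, most of it Laptm5 (84.8 TPM in Mutant and 25.1 TPM in Control) and Fcer1g (19.3 TPM in Mutant and 3.22 TPM in Control), with 2 of 8 higher (Laptm5 and Cd68) and 0 lower. The defining leukocyte marker Ptprc stood at 0.303 TPM in Mutant and 0.381 TPM in Control. Of 8 markers of the cultured muscle lineage, 3 were higher in Mutant and 3 lower. The leukocyte and muscle lineage counts stand beside 9.02% of all genes higher in Mutant and 8.11% lower. In the authors' deposited table of PT and PUT, 3 of 6 macrophage and leukocyte genes were higher and 1 lower, and 2 of 7 fibroblast markers were higher and 2 lower, beside 25.1% and 22.1% of all genes.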

How the data were processed

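RNA was sequenced from 9 libraries in 3 groups, and per the submitters' processing notes the tools were Trim Galore 0.6.6, STAR 2.7.6a (HISAT2 2.2.1 for Cre Control), featureCounts 2.0.1 and DESeq2, with builds GRCm38 and mm10. Deposited by the authors were raw counts for repeat subfamilies (1794698 to 2245124 per library), used here only to describe the libraries. For Mutant and Control the authors deposited, per gene, mean TPM, log2 fold change and SE, a score (the statistic of their test), and raw and adjusted p-values. Its deposited log2 fold change is the log2 ratio of mean TPM plus 1, so the test estimate, statistic times SE, was used in its place. For PT and PUT the authors deposited a mean signal (normalised count), log2 fold change, SE, score and p-values, per the file headers.

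Calls are the authors' adjusted p below 0.05 over the whole table, with 95% normal intervals. Whether replicates are separate animals is not stated, so p-values measure only how these samples vary, perhaps for technical reasons. No test across genes was refitted. Readjustment used a Benjamini-Hochberg function tested on simulated data. Positions come from GENCODE M21 and promoter windows from RefSeq GRCm38.p6. Cdh2 was left out of the window search, so the genes read do not show which genes have a RefSeq entry. The 10 genes, the 5 wider lists and the 6 marker lists were chosen with earlier results of these data known. Named are all 10 genes, up to 4 called genes per direction of each wider list by size of the estimate, and up to 3 markers per list by level. Others were chosen after their values were seen: Ctnnb1, Rac1, Cdc42, St8sia2, St8sia4, the other ferlins, Anxa6, Ptprc, Sox10, Pdgfra, Dcn, Lum, Col1a1, Ly6a, the called markers Actc1, Tek, Cdh5, Mbp and Erbb3, and genes named for their overlap. The deposited comparison of repeats was not used. Work was done in Python 3.11.15 with pandas 2.3.3, numpy 2.4.6 and scipy 1.17.1.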

Additional observations from a re-analysis of the deposited data

How the results depend on the processing

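Thresholds of 0.1 and 0.01, adjustment recomputed over every gene, a filter at a mean of 1 TPM or 10 normalised counts, and direction by mean TPM left every total of called genes within 1.5 times its reported value. By direction 4 counts moved further: actin remodelling genes lower in PT were 2 at 0.01, against 5 reported, ferlin-list genes higher in PT were 0 at 0.01, against 1, and genes lower in Mutant were 2 at 0.1, against 1, in both the cadherin and the ferlin list (also 2 in the ferlin list with the filter). Among the 10 genes the count called in Mutant was 4 or 5 and in PT 6 or 7, the added gene being Dysf. Over the wider lists together it ran between 26 and 34 in Mutant, against 30 reported, and between 39 and 50 in PT, against 45 reported. All 10 test estimates of Mutant over Control kept their sign as deposited log2 fold changes and with pseudocounts of 0.1 and 1. For Nphs1 the test estimate of -0.99 was -0.26 with a pseudocount of 1. No paired analysis was possible because the gene tables hold comparisons without values per library, and for the same reason leaving out each replicate was not run. The depth behind the gene values is unknown.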

Other observations

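Cdh15 lies inside the annotated span of Gm20388, a gene model of 4434882 bases on the same strand that shares 0 exonic bases with it. Gm20388 had 14.6 TPM in Mutant and 18.2 TPM in Control in the authors' deposited table (log2 estimate -0.33 with SE 0.45, their DESeq2 adjusted p = 0.831), and 1361 normalised counts with a log2 fold change of -0.81 (SE 0.07) in PT. Dysf has 2 antisense neighbours in the same annotation, Gm33024 with 105 and Gm15475 with 352 shared exonic bases. An intron of Dysf holds the processed pseudogene Gm7498, which had 203 normalised counts and fell by 1.04 in PT (SE 0.15) in the authors' deposited table.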
